A study of Homo sapiens with 6 samples.

Results

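The genes described here are the C/D box small nucleolar RNAs (snoRNAs) named SNORD plus a number, without the repeated SNORD115 and SNORD116 copies. They were chosen by symbol alone, from array probe sets that the platform's gene table pairs with 1 symbol, and each gene is represented by its probe set with the highest mean over the 6 arrays. This gave 128 genes, from 169 probe sets, of 33458 singly named genes in the series. Their levels were measured in TPC-1, an established human cell line of papillary thyroid carcinoma origin, 24 h after transfection of 25 pmol of an siRNA against SMAD3 (si-SMAD3, 3 arrays) or of a control siRNA (si-Control, 3 arrays). Both groups received the same lipid reagent at about 85% confluence, and the series' design text gives the 3 replicates as experiments done at separate times. SMAD3 is a transcription factor of the TGF-beta pathway, and the comparison asks which transcripts depend on it. All arrays come from 1 cell line, and the labels give neither the sequence of the siRNA nor the number of siRNAs in it.

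C/D box snoRNAs are short nuclear RNAs that bind fibrillarin (FBL), NOP56, NOP58 and SNU13. Most of them base-pair with ribosomal RNA and direct fibrillarin to methylate a ribose there, some guide the U6 spliceosomal RNA, and a few, such as U3, U13 and U14, act in the cutting or acetylation of the ribosomal RNA precursor. In humans most are not transcribed alone: they lie in introns of other genes, often genes of ribosomal proteins, nucleolar proteins or translation factors, and are trimmed out after splicing and debranching. The U3 and U13 genes have promoters of their own.

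Many genes that carry snoRNAs start transcription at a C within a run of pyrimidines, a feature known from ribosomal protein genes. The starts of 4 genes that carry snoRNAs described below are shown to compare this feature between them, with 25 bases before and 25 bases from the annotated start. They are RefSeq sequences of GRCh38.p14, and capitals mark the longest run of C or T bases that comes within 2 bases of the start.
RPS12, chr6:132814544-132814593, plus strand, contains SNORD100 and SNORD101: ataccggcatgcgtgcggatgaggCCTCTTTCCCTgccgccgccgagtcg
RPS13, chr11:17077643-17077692, minus strand, contains SNORD14A: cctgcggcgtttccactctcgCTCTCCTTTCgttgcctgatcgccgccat
EEF1B2, chr2:206159870-206159919, plus strand, contains SNORD51: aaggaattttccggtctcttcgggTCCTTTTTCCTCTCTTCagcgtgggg
NCL, chr2:231464460-231464509, minus strand, contains SNORD20 and SNORD82: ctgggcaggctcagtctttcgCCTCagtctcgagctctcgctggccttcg
The run was 11 bases long in RPS12, 10 in RPS13, 17 in EEF1B2 and 4 in NCL, where 2 runs of that length come so near, the first is in capitals and the annotated start lies between them. A run of at least 7 bases was present at any listed start in 10 of the 32 containing genes with a promoter in that table (31.2%). Over all genes it was present in 3947 of 27305 (14.5%). The shares are not adjusted for the number of starts listed per gene, and containing genes were taken regardless of strand. For EEF1B2 the table lists 2 starts, and the one with the longer run is shown. The 4 genes shown were picked with the differences of their snoRNAs known. A link between run length and difference was not tested.

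SMAD3 mRNA, the target of the siRNA, was measured at 10.58, 10.03 and 10.27 on the si-SMAD3 arrays, against 14.20, 14.21 and 14.67 on the si-Control arrays, in log2 units of the deposited values. Its mean was 10.29 ± 0.28 with si-SMAD3 and 14.36 ± 0.27 with si-Control (SD, n = 3 each), a log2 difference of -4.06 (SE 0.22) at an adjusted p of 0.000437 in limma's test. It was the one gene of 20590 tested that passed the adjusted threshold of 0.05, which is 0.00486% of the genes. These are bulk RNA samples, in which fewer cells of a type and less RNA per cell cannot be told apart. Of the thyroid markers, the transcription factor genes PAX8 (mean 13.63) and FOXE1 (6.98) were above the filter on level, while TG, TSHR, SLC5A5 and NKX2-1 lay between 3.09 and 3.77, below it. Of the epithelial markers KRT8 (15.03), KRT18 (13.62), KRT7 (7.87) and KRT19 (5.07) were above the filter and EPCAM (3.47) and CDH1 (3.11) below it. The filter, at 3.93, is the median over all probe sets and not a limit of detection. Among markers of other cell types it was passed by CD68 (8.85) and PTPRC (3.96) of the immune list and VWF (4.21) of the endothelial list. COL1A1 (8.51), COL1A2 (6.59) and PDGFRB (3.95) of the fibroblast list also passed it. PTPRC and PDGFRB did so by a narrow margin, and CD3E, PECAM1 and CDH5 did not pass. The first principal component (29.3% of the variance) set both replicate 2 arrays apart, with scores of 39.5 for si-SMAD3 and 23.6 for si-Control against -28.1 to -6.15 for the other arrays, so counts are also given without these 2 arrays.

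The names of the SNORD probe sets need a check before their values are read. Probe set identifiers on this platform carry a chromosome number. Of the SNORD probe sets that the gene table pairs with an Entrez gene ID, 96 of 96 lay on the chromosome that RefSeq gives for the symbol. Of those without an Entrez ID, 10 of 66 did (15.15%), while 9854 of 10201 other probe sets without an Entrez ID did (96.6%). Among the 128 genes, 94 were represented by a probe set with an Entrez ID. Of the other 34, 23 were represented by a probe set on another chromosome, 7 by one on the same chromosome, 3 by one with no chromosome and 1, SNORD39, had no match in RefSeq. A probe set on another chromosome is not at the place RefSeq gives for the symbol, so among the names used below SNORD2, SNORD5, SNORD27, SNORD28, SNORD30, SNORD37, SNORD44, SNORD56, SNORD64, SNORD66, SNORD74 and SNORD112 stand for a probe set of that name and not for the annotated gene. A further 70 SNORD symbols occur only on probe sets that name several genes at once and are not described by name.

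Signals of the SNORD genes spanned the whole range of the array. The 6-array means ran from 2.84 for SNORD114-5 to 19.93 for SNORD13, with a median of 4.59, and 86 genes passed the filter at 3.93, the median over all probe sets. Just below the filter lay SNORD113-3 (3.71), SNORD27 (3.72) and SNORD66 (3.87), and just above it SNORD28 (3.94), SNORD5 (4.02) and SNORD114-2 (4.06). The signal of a probe set depends on its probes as well as on its RNA, and the RefSeq genes measured here are between 67 and 237 bases long (median 75). Signals of different genes are therefore given as a description and not as amounts of RNA.

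The snoRNAs of ribosomal RNA processing all passed the filter, 7 of 7, with a median of 13.45. U8 (SNORD118), which the platform's table lists as U8, falls outside the choice by symbol and is not among them. SNORD13, the U13 snoRNA that guides acetylation of 18S ribosomal RNA, stood at the ceiling of 19.93 on all 6 arrays, so no difference in it could be measured. The U3 genes SNORD3A (14.93), SNORD3C (13.59), SNORD3B-2 (13.45) and SNORD3D (13.04) followed, and the U14 genes SNORD14A and SNORD14E lay at 9.73 and 8.15. The U6 guides passed in 5 of 5 cases, between 5.10 for SNORD7 and 11.66 for SNORD8. Outside these groups, a high signal was seen for the probe set named SNORD13P3 (16.33), a U13 pseudogene copy on chromosome 3. Whether its signal comes from that copy or from SNORD13 was not tested. Signals were also high for SNORD82 (15.95) in the nucleolin gene NCL and for SNORD15B (14.63) in the ribosomal protein gene RPS3. So were those of probe sets named SNORD24 (14.22) and SNORD36C (12.79), which carry no chromosome.

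The imprinted cluster at 14q32 made up most of the low end. Of the 39 SNORD113 and SNORD114 copies, which lie in tandem in the noncoding gene MEG8, 7 passed the filter, and the means ran from 2.84 to 4.94 with a median of 3.45. MEG8 itself averaged 3.24 and did not pass it. Among genes with an Entrez ID outside 14q32, 54 of 55 passed with a median of 8.25, the exception being SNORD125 at 3.05. Of the 23 genes represented on another chromosome 15 passed, with a median of 4.12. The 5 lowest signals were SNORD114-5, SNORD114-22 (2.89) and SNORD114-24 (2.99) of the cluster, and SNORD30 (2.87) and SNORD44 (2.97), both represented on another chromosome. For comparison, 70 of 74 H/ACA snoRNA genes (SNORA, which guide pseudouridylation) passed with a median of 6.64, and 4 of 24 SNORD115 and SNORD116 copies with a median of 3.36.

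**Figure D1:**
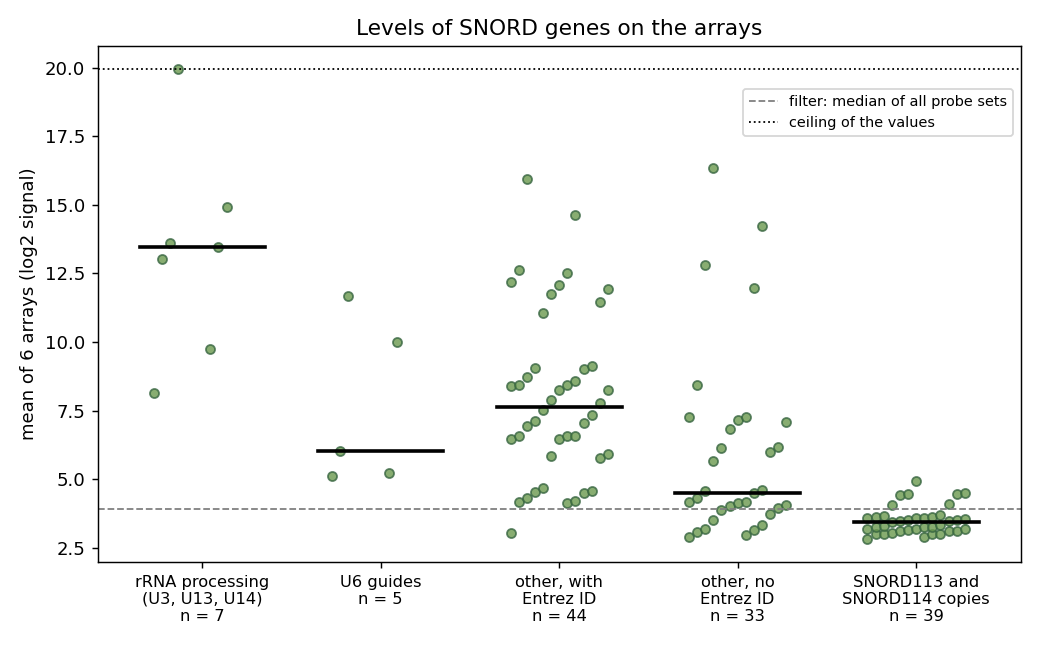
Mean log2 signal over the 6 arrays (y axis) of each of the 128 SNORD genes, by group (x axis, with the number of genes), with horizontal bars at the group medians, a dashed line at the filter and a dotted line at the ceiling of the values. The rRNA processing and U6 guide groups lie above the filter in full, and 32 of the 39 SNORD113 and SNORD114 copies lie below it.

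None of the 86 SNORD genes tested passed the adjusted threshold in limma's test, whose lowest adjusted p among them was 0.676, for SNORD127. At an unadjusted p under 0.05, 4 SNORD genes were higher with si-SMAD3 (4.65%, against a background of 2.71% of all genes tested) and 2 were lower (2.33%, against 3.03%). The 3 si-SMAD3 values did not overlap the 3 si-Control values in 8 genes that were higher (9.3%, background 5.75%) and in 3 that were lower (3.49%, background 5.28%). The sign was the same in all 3 experiments in 22 genes (25.6%), against 27.9% of all genes. These shares are near their backgrounds. Without si-SMAD3 replicate 3 the 6 genes at an unadjusted p under 0.05 became 3, and without both replicate 2 arrays they became 8, of which 3 were higher and 5 lower. No share over all genes is given for these settings, so these counts are not read as a result about the SNORD genes.

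The differences, si-SMAD3 minus si-Control, were positive in 44 SNORD genes, negative in 41 and 0 in SNORD13. Their median was 0.05, against 0.02 over all genes tested, and 10 exceeded 0.5 in size (11.6%, background 7.8%). The median was -0.04, 0.18 and -0.06 in experiments 1, 2 and 3, against 0.04, 0.07 and -0.08 over all genes tested. The sign thus depended on the experiment, in the SNORD genes and over all genes. The 95% interval of a difference had a median half-width of 0.55 over 85 genes (0.38 to 1.13). With 3 arrays a group, a log2 difference of about 0.5 in a typical SNORD gene was thus smaller than this half-width. The intervals are not adjusted for the number of genes tested, and passing the adjusted threshold takes a larger difference.

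**Figure D2:**
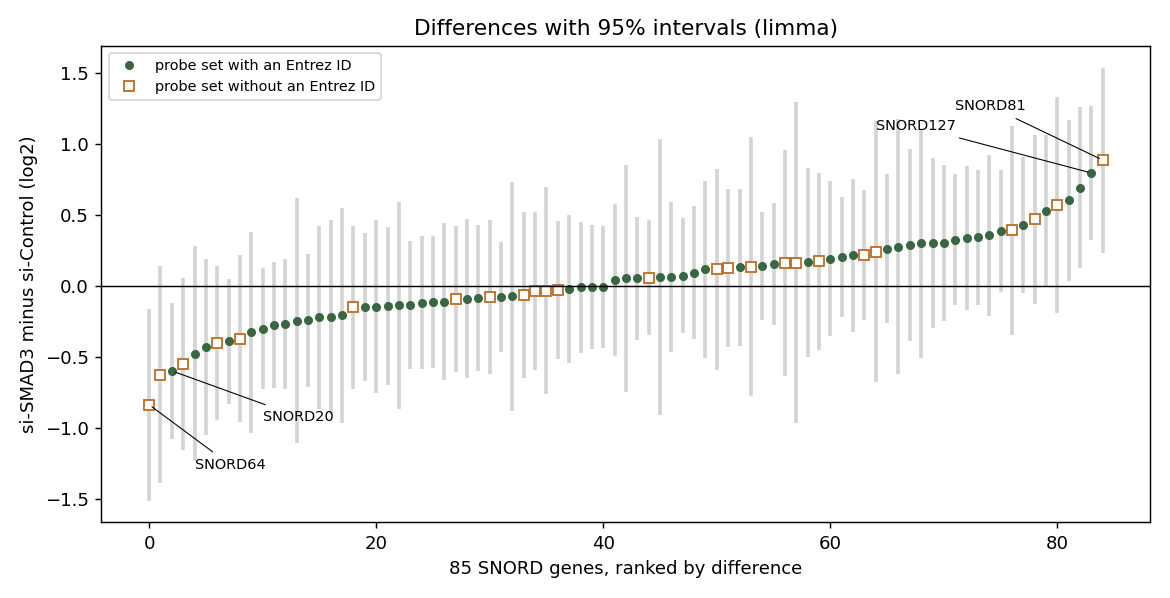
Log2 difference, si-SMAD3 minus si-Control (y axis), with its 95% interval from limma (vertical bars), for the 85 SNORD genes tested below the ceiling, ranked by the difference (x axis). Filled circles are genes represented by a probe set with an Entrez ID, open squares those without. Most intervals include 0, SNORD81 and SNORD127 lie at the upper end and SNORD64 and SNORD20 near the lower end.

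The U3 snoRNA genes, which base-pair with the ribosomal RNA precursor at the start of small subunit assembly, showed no difference beyond the spread between arrays. SNORD3A (Entrez ID 780851) measured 14.948, 14.950 and 14.997 with si-SMAD3, against 15.035, 14.718 and 14.925 with si-Control. Its difference was 0.07 (SE 0.18, 95% interval -0.33 to 0.48). The other copies differed by 0.04 (SNORD3C), -0.02 (SNORD3B-2) and -0.00 (SNORD3D). U3 copies are nearly identical in sequence, so a signal cannot be assigned to 1 copy, and signs this close to 0 turned in at least 1 alternative for each of the 4.

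Of the U14 genes, which act in 18S ribosomal RNA maturation, SNORD14A (Entrez ID 26822) was the one among the rRNA processing snoRNAs with an unadjusted p under 0.05. It measured 10.01, 10.13 and 9.96 with si-SMAD3, against 9.04, 9.29 and 9.96 with si-Control. The si-SMAD3 arrays lay close together while the si-Control arrays were spread out, and the arrays of experiment 3 differed by 0.00. Its difference was 0.60 (SE 0.25, limma adjusted p = 0.86), with group means of 10.03 ± 0.09 and 9.43 ± 0.48 (SD, n = 3 each). SNORD14A lies in RPS13, a ribosomal protein gene of the small subunit, which has no singly named probe set here. SNORD14E, the U14 copy in the heat shock protein gene HSPA8, differed by -0.09. Whether the probe sets tell the U14 copies apart was not tested.

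The 5 guides of U6 methylation gave 1 positive and 4 negative differences, with a median of -0.24. The experiments did not show one direction, since the group's median was -0.41, 0.19 and -0.50 in experiments 1, 2 and 3. SNORD8 measured 11.29, 11.65 and 11.58 with si-SMAD3, against 11.70, 11.76 and 11.95 with si-Control, and the groups did not overlap. Its difference was -0.30 (SE 0.19, adjusted p = 0.923 in limma). SNORD9, a close relative of it in the same gene, CHD8, differed by -0.32 with overlapping groups. SNORD94 differed by -0.24, SNORD67 by -0.09 and SNORD7 by 0.05. CHD8, a chromatin remodeller, differed by 0.05 itself.

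The smallest p among the SNORD genes belonged to SNORD127 (Entrez ID 100113389), on chromosome 14 inside PRPF39, a splicing factor gene. It measured 5.90, 6.18 and 6.42 with si-SMAD3, against 5.18, 5.40 and 5.53 with si-Control. All si-SMAD3 arrays were above all si-Control arrays, and the 3 experiments gave differences of 0.72, 0.78 and 0.89. The mean was 6.17 ± 0.26 with si-SMAD3 and 5.37 ± 0.18 with si-Control (SD, n = 3 each), a difference of 0.80 (SE 0.21, 95% interval 0.33 to 1.27, limma adjusted p = 0.676). PRPF39 averaged 8.41 ± 0.15 with si-SMAD3 and 8.47 ± 0.21 with si-Control (SD, n = 3 each), a difference of -0.06.

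SNORD51 (Entrez ID 26798) lies in EEF1B2, which encodes a translation elongation factor subunit and has no singly named probe set. It measured 7.07, 6.49 and 7.25 with si-SMAD3, against 6.33, 6.46 and 5.93 with si-Control. The groups did not overlap, but in the second experiment the arrays differed by 0.03, against 0.73 and 1.32 in the others. The difference was 0.69 (SE 0.25, limma adjusted p = 0.817). SNORD100, in the ribosomal protein gene RPS12, measured 9.02, 8.95 and 8.81 with si-SMAD3, against 8.77, 8.48 and 8.36 with si-Control, a difference of 0.39 (SE 0.19, adjusted p = 0.877). All si-SMAD3 values were above all si-Control values, whereas SNORD101 in the same gene differed by -0.21 with overlapping groups. SNORD92, in WDR43, a gene of the small subunit processome, measured 6.67, 7.09 and 6.65 with si-SMAD3, against 6.63, 6.27 and 6.22 with si-Control. Those groups were separated by a narrow margin, and the difference was 0.43 (SE 0.21, adjusted p = 0.877). SNORD32B, the eighth gene with no overlap on the higher side, had the smallest spread of all below the ceiling and differed by 0.14; it falls outside the rule for named genes and was chosen after its values were seen.

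On the lower side, SNORD20 (Entrez ID 6082), a guide for 18S ribosomal RNA in the nucleolin gene NCL, measured 7.08, 7.59 and 7.03 with si-SMAD3, against 7.97, 7.75 and 7.76 with si-Control. The groups did not overlap, and the second experiment showed the smallest difference, -0.16, against -0.90 and -0.73. The mean was 7.23 ± 0.31 with si-SMAD3 and 7.83 ± 0.12 with si-Control (SD, n = 3 each), a difference of -0.60 (SE 0.21, limma adjusted p = 0.817). SNORD82 in the same host differed by -0.21 with overlapping groups. NCL, which encodes a major nucleolar protein, differed by 0.29.

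SNORD111, in the splicing factor gene SF3B3, measured 7.43, 7.06 and 6.96 with si-SMAD3, against 7.61, 7.52 and 7.48 with si-Control. The si-SMAD3 values lay below all si-Control values, and the difference was -0.39 (SE 0.19, adjusted p = 0.877). SNORD111B, its neighbour in the same gene, differed by -0.43 (SE 0.28) with overlapping groups, while SF3B3 differed by -0.01. SNORD93, in SNHG26, measured 11.91, 10.83 and 11.79 with si-SMAD3, against 12.38, 11.48 and 12.10 with si-Control. Both replicate 2 arrays were the lowest of their group, and si-SMAD3 was lower in each of the 3 experiments. The difference was -0.48 (SE 0.33, limma adjusted p = 0.939). It became -0.14 without si-SMAD3 replicate 2 and -0.73 without si-Control replicate 2. Each of these settings keeps the low array of the other group.

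**Figure D3:**
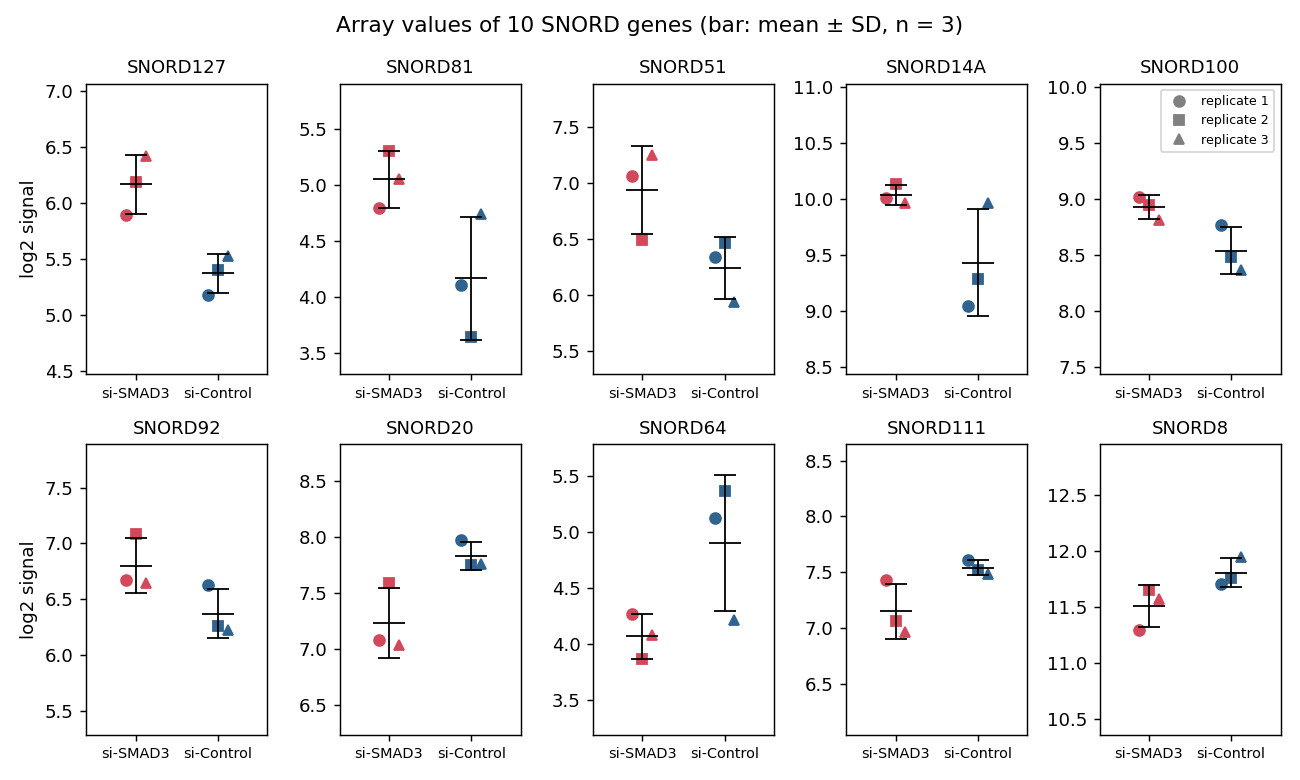
Log2 signal (y axis) on each si-SMAD3 array (left, red) and si-Control array (right, blue) for 10 SNORD genes, with the marker shape giving the replicate number and horizontal bars the mean and 1 SD to each side (n = 3). SNORD127 is higher on every si-SMAD3 array than on any si-Control array and SNORD20 is lower, whereas the groups of SNORD64 overlap.

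Several genes carry more than 1 of these snoRNAs. Both snoRNAs had the same sign in ATP5F1B (SNORD59A 0.34, SNORD59B 0.13), TSR1 (SNORD91A 0.22, SNORD91B 0.19), CHD8, NCL and SF3B3. The signs were mixed in RPS12, in NOP58 (SNORD11 -0.15, SNORD11B 0.28, SNORD70 -0.01) and in PPAN (SNORD105 0.36, SNORD105B -0.01). None of these differences passed the adjusted threshold, and that of SNORD82 turned to 0.056 without si-SMAD3 replicate 1.

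By RefSeq, 88 of the 94 genes with an Entrez ID lie within the span of another gene, regardless of strand. The exceptions were SNORD13, SNORD32B and the 4 U3 genes. Of the 43 containing genes, 22 could be named from a probe set of their own and 21 passed the filter. This left 28 pairs of a SNORD gene and its containing gene, over 20 containing genes. The pairs had the same sign in 13 cases and opposite signs in 15, and across the pairs the Pearson correlation of the 2 differences was -0.31, a description over pairs that share arrays and in part containing genes. Among the containing genes, the 2 largest differences in size were those of AP1G1, a gene of clathrin-coated vesicles, at 0.45, and RC3H2, at 0.46, and the snoRNAs inside them had the opposite sign, SNORD71 at -0.22 and SNORD90 at -0.14. These 4 genes fall outside the rule for named genes and were chosen after their values were seen.

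**Figure D4:**
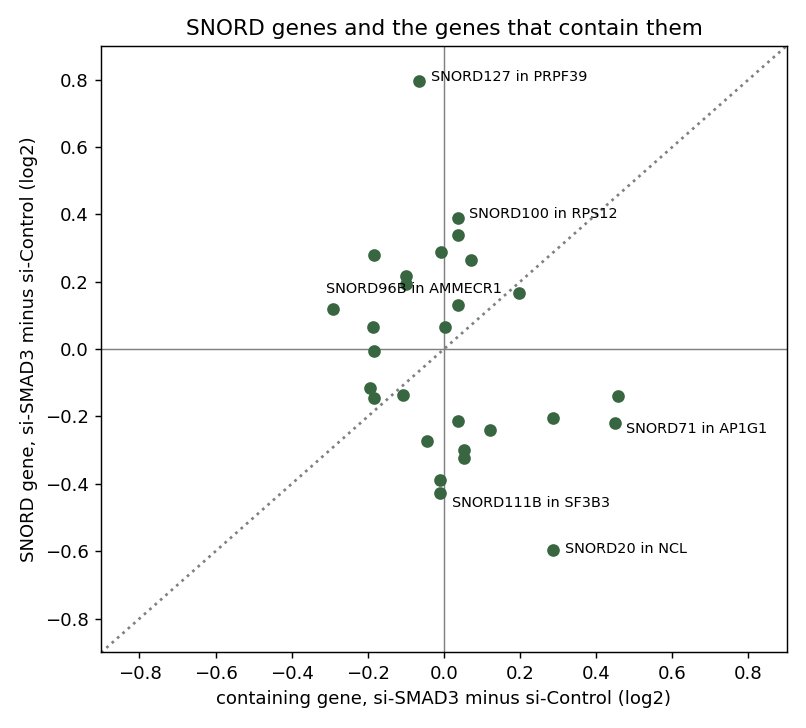
Log2 difference, si-SMAD3 minus si-Control, of the containing gene (x axis) and of the SNORD gene (y axis) for the 28 pairs in which both were tested, with a dotted line where they are equal. The points lie in all 4 quadrants, with 13 pairs of the same sign and 15 of opposite sign.

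Probe sets without an Entrez ID gave the largest differences of either sign and also a wider spread. The median residual SD was 0.38 for the 25 such genes tested, against 0.30 for the 61 with an Entrez ID and 0.28 over all genes tested. The probe set named SNORD81, on chromosome 1 as RefSeq gives for the symbol, measured 4.80, 5.31 and 5.05 with si-SMAD3, against 4.11, 3.64 and 4.74 with si-Control. The groups did not overlap, and the difference was 0.89 (SE 0.29, limma adjusted p = 0.814), but the differences of its 3 probe sets ran from -0.58 to 0.89. The probe set named SNORD64 lies on chromosome 1, while RefSeq places the gene in the imprinted region of chromosome 15. It measured 4.27, 3.86 and 4.08 with si-SMAD3, against 5.13, 5.37 and 4.21 with si-Control, with overlapping groups and a difference of -0.83 (SE 0.30, limma adjusted p = 0.817). Its low si-Control value was that of replicate 3.

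A further 6 genes of this kind, which the rule for named genes takes for their p, had overlapping groups. SNORD19 differed by -0.62, SNORD39 by -0.55, SNORD5 by -0.40 and SNORD28 by -0.37, while SNORD112 differed by 0.57 and SNORD2 by 0.47. Single arrays carried much of these values, since the difference was 0.21 for SNORD112 without si-SMAD3 replicate 1, 0.18 for SNORD2 and -0.30 for SNORD19 without si-SMAD3 replicate 3, and -0.22 for SNORD5 and -0.16 for SNORD28 without si-Control replicate 1. Of the 21 symbols with several probe sets, 10 had differences of both signs among them. SNORD19 was one of these: its probe set with an Entrez ID, at a mean of 4.24, differed by 0.28. The other probe sets named SNORD39 differed by -0.06 to -0.04, and those named SNORD5, SNORD28 and SNORD112 kept the sign given. The 7 probe sets named SNORD74 spanned means of 2.998 to 7.071 and differences of -0.66 to 0.97. With probe sets on the RefSeq chromosome alone, a setting chosen after seeing the data, no SNORD gene passed the adjusted threshold and 5 had an unadjusted p under 0.05. The share over all genes in that setting is not given, so this count is not read as a result.

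In the imprinted clusters the signals were near the filter and little can be read from them. SNORD113-8, in the 14q32 cluster, measured 4.43, 4.07 and 4.58 with si-SMAD3, against 4.01, 3.43 and 4.05 with si-Control. The groups did not overlap, by a margin of 0.02 between the lowest si-SMAD3 and the highest si-Control array, and the difference was 0.53 (SE 0.24, adjusted p = 0.87). Of the 7 SNORD113 and SNORD114 copies tested, 3 were higher and 4 lower, with a median of -0.08. In the region of chromosome 15, SNORD109B differed by 0.34 (SE 0.21).

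The spread between arrays of a group was wide in several SNORD genes. The median residual SD over the 86 genes was 0.32. It was largest for the probe set named SNORD37 (0.86), which measured 3.94, 5.42 and 3.77 with si-SMAD3, against 5.16, 3.80 and 3.68 with si-Control, so that 1 high array in each group set the means. SNORD119 (0.72), SNORD24 (0.68), SNORD56 (0.68) and SNORD11B (0.66) came next. It was smallest for SNORD32B (0.032) and SNORD15B (0.056) among genes below the ceiling. Relative to each gene's own mean, the median of the tested SNORD genes was -0.06, 0.07 and 0.01 on the si-SMAD3 arrays and -0.02, -0.10 and 0.11 on the si-Control arrays. The 2 outer values were both si-Control arrays, so the arrays of the 2 groups were interleaved. Over all genes tested the 2 outer values were also those of si-Control arrays, -0.05 for replicate 1 and 0.05 for replicate 3.

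The protein genes of the C/D snoRNA pathway did not pass the adjusted threshold either. The core protein genes had 3 of 4 members tested and all 3 were lower in the mean: the difference was -0.11 for FBL, the methyltransferase, -0.18 for NOP58 and -0.31 for SNU13, with overlapping arrays. Of the 10 assembly factors, 2 were higher and 8 lower, with a median of -0.12, against 0.02 over all genes, and 2, both lower, had an unadjusted p under 0.05 (background 3.03%). RPAP3, a subunit of the R2TP cochaperone complex, measured 11.14, 10.83 and 11.11 with si-SMAD3, against 11.49, 11.54 and 11.59 with si-Control, a difference of -0.51 (SE 0.18, adjusted p = 0.817). NOLC1, a chaperone of snoRNPs in nucleoli and Cajal bodies, measured 10.48, 9.48 and 10.52 with si-SMAD3, against 11.77, 10.40 and 11.31 with si-Control, a difference of -1.001 (SE 0.39, adjusted p = 0.86). Both replicate 2 arrays were the lowest of their group for NOLC1, and si-SMAD3 was lower in every experiment. PIH1D1, another R2TP subunit, differed by -0.42.

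Among 17 genes of snoRNA release, trimming and surveillance, 9 were higher and 8 lower, and 1, a higher one, had an unadjusted p under 0.05 (background 2.71%). This was DBR1, the enzyme that opens intron lariats, from which intronic snoRNAs are then trimmed. It measured 9.93, 9.58 and 10.02 with si-SMAD3, against 9.27, 8.93 and 9.19 with si-Control, with no overlap, and its difference was 0.71 (SE 0.20, limma adjusted p = 0.759). The exonuclease gene XRN2 differed by -0.34 with no overlap, and the exosome subunit gene EXOSC7 by -0.38 with overlapping groups. Of the 5 cap and transport factors 2 were higher and 3 lower, with XPO1 at -0.21, TGS1 at -0.19 and NCBP2 at -0.16.

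Of 29 genes of the U3 snoRNP and the small subunit processome 16 were higher and 13 lower, with a median of 0.03 and none at an unadjusted p under 0.05. DCAF13 differed by -0.34 with no overlap of the groups, and RCL1 by 0.44 and UTP25 by -0.19 with overlapping groups. Of 16 genes of RNA polymerase I transcription, which makes the ribosomal RNA precursor, 10 were higher and 6 lower, with a median of 0.06. UBTF differed by 0.38, POLR1H by 0.39 and RRN3 by 0.24. The H/ACA core genes GAR1 (-0.18), NOP10 (-0.08) and NHP2 (0.10), which serve the other snoRNA class, had overlapping arrays. In the SNORA genes themselves 37 were higher and 33 lower, with a median of 0.01 and 0 past the adjusted threshold in limma's test, where 4 higher and 2 lower ones had an unadjusted p under 0.05 (background 2.71% and 3.03%).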

How the data were processed

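Values were deposited on the log2 scale, and the submitters' processing notes name RMA and Affymetrix Expression Console. Neither versions nor any later transformation are stated in them, and all arrays share a ceiling of 19.93. RNA was taken from 3 si-SMAD3 and 3 si-Control cultures, 1 array each, and the number of arrays limits the precision. Of 138745 probe sets, 36176 have 1 symbol in the platform's gene table, which can be old, 1119 have several and 101450 are not listed. Symbols were updated with a RefSeq table of GRCh38.p14. Symbols that the platform's table gives as SNORD plus a number were not updated. A gene was represented by its probe set with the highest mean.

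Genes with a mean of at least 3.93, the median of all probe sets, entered the test (20590 of 33458): limma 3.58.1 in R 4.3.3 (lmFit and eBayes, 2-sided, no further term), with Benjamini-Hochberg adjustment over all of them and a threshold of 0.05. A fit of this kind was checked on simulated data, with 200 of 20590 genes changed. At the adjusted threshold it recovered 0.3% of log2 differences of 0.5 and 21.5% of those of 1. Of differences of 2 and 3 it recovered 77.4% and 95.1%. The SNORD genes and all gene lists were chosen with earlier results of these data known. The genes named are SMAD3, the 10 SNORD genes with the smallest p in each direction, the 10 highest and 5 lowest means, the rRNA processing group, the 5 with the largest spread, their containing genes, and up to 3 genes with the smallest p per protein list; other names serve to show group members, neighbours in 1 host and members near the filter. Containing genes were taken from RefSeq spans without strand, which that table does not give, and snoRNA sequences were not used here.

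The replicate number is taken to mark the experiment, from the sample titles and the series' design text. Deviations from the group means correlated between same-numbered arrays at 0.15, 0.22 and 0.05 for replicates 1, 2 and 3, and between arrays of different numbers at -0.18 to 0.06. Alternatives were other filters, an intensity trend, a replicate block, means over probe sets, all probe sets, centring, quantile normalization and leaving out arrays.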

Additional observations from a re-analysis of the deposited data

How the results depend on the processing

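No SNORD gene passed the adjusted threshold under any of the alternatives run. At an unadjusted p under 0.05 there were 6 SNORD genes, 10 (7 higher and 3 lower) with no filter on level, 8 with the replicate block, in which 0 passed the adjusted threshold, and 3 to 7 when 1 array was left out, the lowest without si-SMAD3 replicate 3. In the main fit the shares of all genes tested were 2.71% higher and 3.03% lower. No such share is given for the other settings, so their counts are not read as a result. The block changed no adjusted call. Genes of any kind past the adjusted threshold numbered 1, against 5 with an intensity trend and robust variance and 3 with arrays centred on their median. Of the 63 named genes tested, SMAD3 included, 39 showed no change of sign. Without both replicate 2 arrays the difference became -0.040 for SNORD13P3, -0.007 for SNORD3A, -0.268 for SNORD3C, -0.561 for SNORD37 and -0.020 for POLR1H. With quantile normalization it became 0.017 for SNORD3B-2, 0.028 for SNORD3D and 0.038 for SF3B3, and with the mean of all probe sets -0.056 for SNORD56. Leaving out 1 array gave ranges that cross 0 for these genes: SNORD13P3 -0.011 to 0.119, SNORD82 -0.541 to 0.056, SNORD3A -0.015 to 0.143, SNORD24 -0.247 to 0.499, SNORD3C -0.170 to 0.182, SNORD3B-2 -0.194 to 0.166, SNORD3D -0.053 to 0.095, SNORD36C -0.285 to 0.034, SNORD14E -0.309 to 0.059, SNORD37 -0.356 to 0.637, SNORD119 -0.381 to 0.491, SNORD56 -0.164 to 0.632, SNORD11B -0.130 to 0.600, PRPF39 -0.177 to 0.031, RPS12 -0.071 to 0.114, SF3B3 -0.123 to 0.113, CHD8 -0.006 to 0.098, NOP58 -0.442 to 0.167, TGS1 -0.371 to 0.015, NCBP2 -0.332 to 0.008, RCL1 -0.025 to 0.757, NOP10 -0.190 to 0.088 and NHP2 -0.159 to 0.356. In 10 further SNORD genes 1 array moved the difference by over 1.5 times with no change of sign. Beyond those given above, it became 0.33 for SNORD113-8 without si-Control replicate 2, 0.218 for SNORD109B without si-Control replicate 3, -0.193 for SNORD8 without si-SMAD3 replicate 1 and -0.196 for SNORD111B without si-SMAD3 replicate 2. Leaving out 1 array keeps the other array of the same experiment. Without both replicate 2 arrays the difference was 0.475 for SNORD113-8 and -0.322 for SNORD111B. The cause of these changes was not tested. Signals near the filter and at the ceiling limit what 3 arrays a group can show.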

Other observations

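The 51 SNORD probe sets that name several genes at once carry snoRNAs of well-known hosts together with those hosts or with each other. Of these, 45 name another gene as well and 6 name SNORD symbols alone. Their signals were high, with 49 of 51 above the filter and a median of 12.92 (3.24 to 18.99), against 4.59 for the singly named SNORD genes. Their si-SMAD3 minus si-Control differences ran from -0.35 to 0.56 with a median of -0.06. Among those above the filter, 20 were higher and 29 lower, and the groups did not overlap in 0 higher and 1 lower ones (background over the genes tested 5.75% and 5.28%). No single snoRNA can be read from a probe set that names several genes.

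The SNORD115 and SNORD116 copies of the imprinted region of chromosome 15, which were left out above, gave low signals in most cases. Of 22 SNORD115 copies 2 passed the filter, and the highest mean was 4.24. Both SNORD116 copies passed it, with means of 7.12 and 11.03, and their differences were 0.06 and 0.22 with overlapping groups.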
